A study of Homo sapiens with 9 samples.

Results

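The 51 genes described here were KRAB-type zinc-finger genes of a pair of clusters on the long arm of human chromosome 19. They were studied in RNA-seq counts of 3 pancreatic ductal adenocarcinoma (PDAC) cell lines. They were selected by symbol from a fixed list of names out of 42717 genes in the table, and the list was drawn up with their expression in these lines already known. The first cluster, 19q13.31, held 20 of them over 0.67 Mb (GRCh38.p14, chr19:43827321-44500522), and the second, 19q13.41, held 31 over 1.45 Mb (chr19:51804442-53254873). S2-007, S2-020 and S2-028 are sublines of SUIT-2, an established PDAC cell line, and differ in maspin, a serpin studied as a tumor suppressor. Maspin lies in the nucleus and the cytoplasm of S2-007, lies in the cytoplasm alone in S2-028, and is weak in S2-020. All 3 lines were grown untreated in the same medium, and poly(A)-selected, strand-specific RNA of each was sequenced as 3 libraries. No source used here says that the 3 libraries of a line came from separate cultures, so the spread between them may be technical, and a difference between lines is a difference between these 3 populations of cells.

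KRAB zinc-finger proteins are the largest family of human transcriptional repressors. An array of C2H2 zinc fingers reads the DNA sequence, in many members the sequence of a retrotransposon, and the KRAB domain recruits the corepressor TRIM28 (also named KAP1). TRIM28 in turn brings in the histone H3 lysine 9 methyltransferase SETDB1, heterochromatin proteins and DNA methylation. The genes arose by tandem duplication and stand in clusters, most of them on chromosome 19, so neighbouring members resemble each other in sequence.

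The total count was between 60328748 and 86253923 per library, and a count of 3, taken as the floor of detection, corresponded to 0.0348 to 0.0497 CPM, the count scaled to library size. This floor allows for counting error alone. All 5 ductal epithelial markers tested (EPCAM and 4 keratins) were above 1 CPM in each line, with sums of 4303 to 5422 CPM in S2-020, 9482 to 10021 CPM in S2-007 and 15039 to 17659 CPM in S2-028, whereas no acinar or islet marker reached 1 CPM. Of the other cell types, the leukocyte marker CD68 was at 41.0 CPM in S2-007, 7.83 in S2-020 and 10.4 in S2-028, with PTPRC at no more than 0.301 CPM. Among the fibroblast markers 1 of 5 was above 1 CPM (COL1A1, 1.32 to 3.63) and among the endothelial markers 1 of 3 (PECAM1, 6.00 to 8.50), with sums of 2.26 to 5.75 and 5.39 to 9.84 CPM over all libraries. The part of these transcripts in the values below was not tested. All levels below are CPM after TMM normalization over the 9 libraries.

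The upstream sequences are shown first because the 2 clusters differed in them. Of the 51 genes, 41 had an entry in the RefSeq promoter table (GRCh38.p14), and ZNF155, ZNF221, ZNF223, ZNF233, ZNF28, ZNF480, ZNF600, ZNF610, ZNF649 and ZNF665 had none. The 250 bases before the start site are printed for 3 of the members of 19q13.31 with the largest differences between lines and for ZNF701 of 19q13.41, which had the smallest. Capitals mark the words TTCTGGGA and CTTCCG, read on either strand. The shorter word is part of the sequence that ETS factors bind.
ZNF229 (chr19:44448473-44448722, minus strand): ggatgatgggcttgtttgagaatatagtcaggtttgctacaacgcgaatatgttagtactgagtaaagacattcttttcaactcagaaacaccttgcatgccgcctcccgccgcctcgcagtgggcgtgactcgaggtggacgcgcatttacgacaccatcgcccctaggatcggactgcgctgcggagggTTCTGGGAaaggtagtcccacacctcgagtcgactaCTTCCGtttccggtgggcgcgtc
ZNF222 (chr19:44025129-44025378, plus strand): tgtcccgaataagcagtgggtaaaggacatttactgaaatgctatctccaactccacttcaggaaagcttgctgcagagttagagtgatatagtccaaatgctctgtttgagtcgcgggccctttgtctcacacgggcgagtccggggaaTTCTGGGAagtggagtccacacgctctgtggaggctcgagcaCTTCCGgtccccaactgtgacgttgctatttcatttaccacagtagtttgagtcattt
ZNF180 (chr19:44500523-44500772, minus strand): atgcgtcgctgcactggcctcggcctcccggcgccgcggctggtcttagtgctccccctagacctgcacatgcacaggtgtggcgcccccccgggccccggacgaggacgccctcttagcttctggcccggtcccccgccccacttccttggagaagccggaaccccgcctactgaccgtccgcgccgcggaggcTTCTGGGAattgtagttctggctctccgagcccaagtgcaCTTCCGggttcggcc
ZNF701 (chr19:52570037-52570286, plus strand): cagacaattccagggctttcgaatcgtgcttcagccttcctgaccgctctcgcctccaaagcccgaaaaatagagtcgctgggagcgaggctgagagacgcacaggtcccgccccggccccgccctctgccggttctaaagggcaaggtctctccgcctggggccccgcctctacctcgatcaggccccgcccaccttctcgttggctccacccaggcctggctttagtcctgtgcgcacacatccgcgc

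Searched on both strands of the same 250 bases, TTCTGGGA lay in 13 of the 16 available promoters of 19q13.31 (81.2%) and in 0 of the 25 of 19q13.41. It lay in 2.37% of all 27305 promoters of the table, in 12 of 169 promoters (7.1%) of the other zinc-finger genes of chromosome 19 and in 14 of 193 (7.25%) of those on other chromosomes. The word was picked after reading the promoters of ZNF229, ZNF222, ZNF180 and ZNF284. Among the remaining 12 promoters of 19q13.31, 9 held it, and the 3 that did not were those of ZNF45, ZNF285 and ZNF404. CTTCCG lay in 11 of 16 (68.8%) and in 7 of 25 (28.0%), against 16.8% of all promoters. It lay in 43.8% of those of the other zinc-finger genes of chromosome 19. For this word the first cluster was thus the richer, but those other genes were rich too.

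The 13 promoters held 21 copies of TTCTGGGA, 11 to 225 bases before the start site with a median of 59. In 12 of the 13 genes it was read in the direction of the gene, and in ZNF283 on the other strand. The copy nearest to the start site with a whole window of 24 bases is given for each gene, in the direction of the word, with the word in capitals, to show how far the likeness extends beyond it.
ZNF283 (chr19:43827255-43827278): agacTTCTGGGAaatgtagtccac
ZNF230 (chr19:44002903-44002926): ggaaTTCTGGGAagtggagtccag
ZNF222 (chr19:44025275-44025298): ggaaTTCTGGGAagtggagtccac
ZNF284 (chr19:44072087-44072110): ggaaTTCTGGGAaatgtagttcac
ZNF224 (chr19:44094328-44094351): ggaaTTCTGGGAagtggagtccaa
ZNF225 (chr19:44113369-44113392): ggaaTTCTGGGAagtggagtccag
ZNF234 (chr19:44141524-44141547): ggaaTTCTGGGAaatgtagtcccg
ZNF226 (chr19:44165041-44165064): ggaaTTCTGGGAagcgtagtccag
ZNF227 (chr19:44212493-44212516): ggccTTCTGGGAagggtagttcag
ZNF235 (chr19:44305041-44305064): ggaaTTCTGGGAagtggagtccac
ZNF112 (chr19:44356783-44356806): ggaaTTCTGGGAaatgtagtttgg
ZNF229 (chr19:44448512-44448535): agggTTCTGGGAaaggtagtccca
ZNF180 (chr19:44500558-44500581): aggcTTCTGGGAattgtagttctg
The bases after the word were alike as well in these windows. Within 19q13.31 the word was in 11 of the 13 available promoters of genes called higher than S2-007 in at least 1 other line. The call is defined with the comparisons below, and the 11 include the 4 promoters from which the word was picked. It was also in 2 of the 3 other promoters, those of ZNF226 and ZNF234. With only 3 promoters of genes not called higher, whether the word went with expression could not be told. A match of letters is a description and not a binding site. In CG, the dinucleotide that is methylated in DNA, the promoters of the members had a median of 17 in 250 bases (1 to 28), the same median as protein-coding promoters and those of the other zinc-finger genes, and 39 of 41 (95.1%) held at least 10, against 68.6% of protein-coding promoters and 85.4% of those of the other zinc-finger genes.

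Most of the 51 genes were transcribed in all 3 lines, at low levels. The mean was at least 1 CPM in every line for 18 of the 20 genes of 19q13.31 and for 27 of the 31 genes of 19q13.41, and the median over genes was 3.93 CPM and 4.71 CPM. Per kilobase of exon, the highest levels were 5.79 CPM per kb for ZNF480 in S2-020, 5.09 CPM per kb for ZNF221 in S2-028 and 3.97 CPM per kb for ZNF222 in S2-028. ZNF404 was the lowest, with counts of 2, 0 and 0 in S2-007, 14, 12 and 24 in S2-020, and 10, 2 and 2 in S2-028.

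Summed over its members, each cluster was lowest in S2-007. The 20 genes of 19q13.31 summed to 90.4, 83.9 and 85.1 CPM in the S2-007 libraries, to 107.0, 114 and 117 CPM in S2-020, and to 135, 127 and 128 CPM in S2-028. The 31 genes of 19q13.41 summed to 181, 186 and 175 CPM in S2-007, to 239, 226 and 221 CPM in S2-020, and to 207, 211 and 209 CPM in S2-028. In either sum the lines were fully separated, and S2-028 was highest for the first cluster whereas S2-020 was highest for the second. Gene by gene, S2-007 had the lowest mean for 16 of 20 and 20 of 31 genes. Every S2-007 library lay under every library of both other lines for 10 genes of each cluster (20 of 51 in all), against 11.5% of the 25661 genes tested in both comparisons with S2-007. The 20 include ZNF404, which was not tested in S2-028 against S2-007 and so is not among the 25661. Its highest S2-007 library and its lowest S2-028 library had 2 counts each, under the floor. ZNF528 was the one member with the reverse order, in which S2-007 lay above both.

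**Figure D1:**
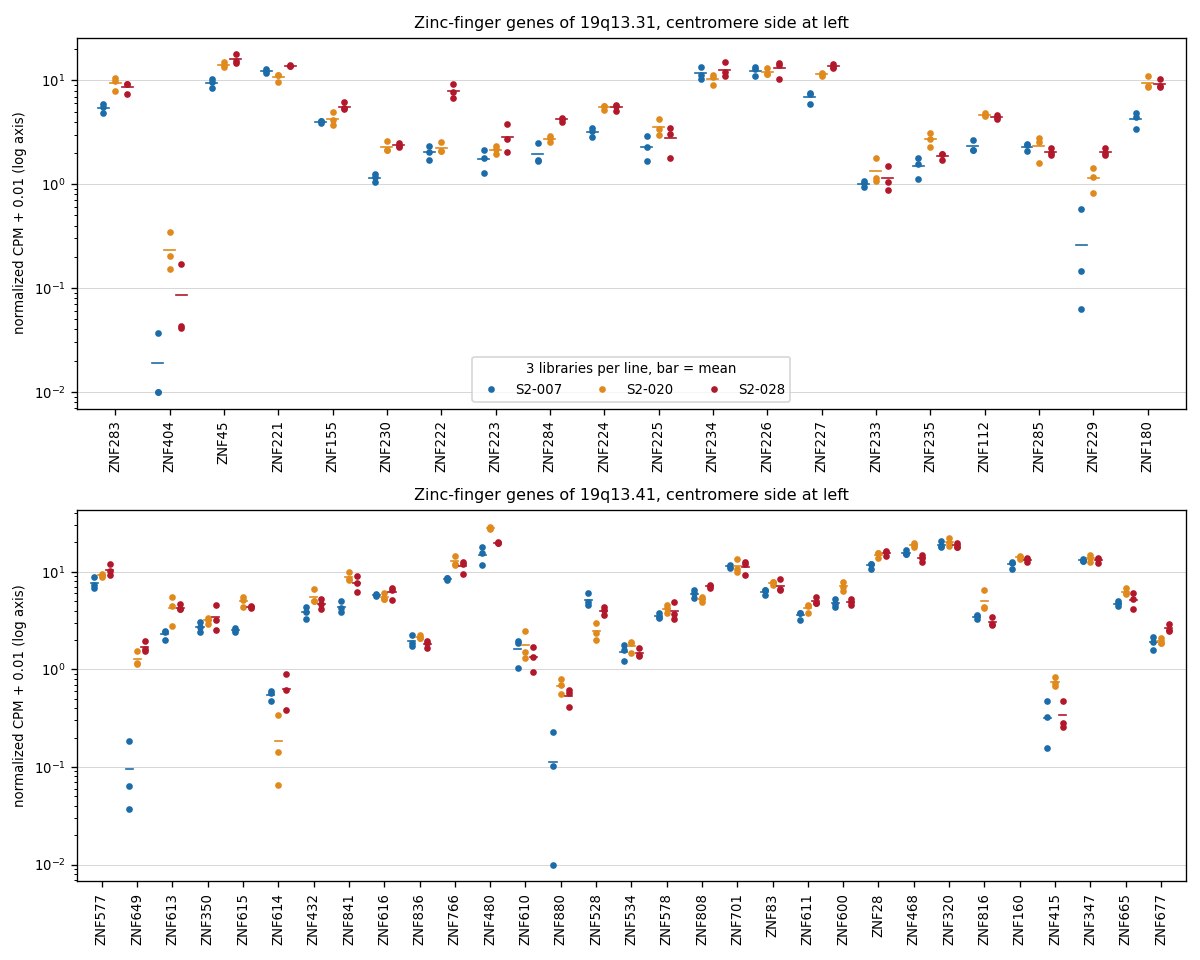
Normalized CPM of each of the 51 genes, plotted as CPM + 0.01 on a log axis in chromosomal order from the centromere side, with 1 point per library (3 per line) and a bar at the line mean. Most genes sit between 1 and 30 CPM with S2-007 at or under the other lines, while ZNF404, ZNF229, ZNF649 and ZNF880 fall far lower in S2-007 and ZNF528 stands highest there.

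To describe how the clusters differed between the sublines, each pair of lines was compared over all genes with edgeR's quasi-likelihood test. A call required a difference of at least 1.5-fold in either direction and an adjusted p (Benjamini-Hochberg over all genes) under 0.05. The list of 51 was chosen with these values known, so its counts are given as a description, with no test. The comparisons of S2-020 and of S2-028 with S2-007 share the S2-007 libraries and are not independent of each other.

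In S2-028 compared with S2-007, 16 of the 50 members that passed the filter on low counts were called higher and 0 lower, against 10.2% of all 26371 genes tested called higher and 8.19% called lower. The member left out by the filter was ZNF404. At an unadjusted p under 0.05, 1 member (ZNF528) was lower, and DESeq2 called 0 lower and 15 higher. In 19q13.31, 11 of 19 were called higher and the median log2 fold change was 0.71, whereas in 19q13.41 it was 5 of 31 with a median of 0.20. The median over all genes tested was 0.00. In S2-020 compared with S2-007, 17 of 51 were called higher and 2 lower (ZNF614 and ZNF528), against 9.57% and 12.1% of all 26657 genes tested. There, 10 of 20 in 19q13.31 (median 0.58) and 7 of 31 in 19q13.41 (median 0.22) were called higher, with a median of -0.05 over all genes. Without any 1 of 4 libraries (S2-007 replicates 2 and 3, S2-020 replicates 2 and 3) the lower call of ZNF614 was lost, which left 1.

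S2-028 and S2-020 differed less in these genes. There 5 of 51 were called higher in S2-028 (ZNF222, ZNF284, ZNF229, ZNF614 and ZNF528) and 2 lower (ZNF816 and ZNF415), that is 9.80% and 3.92% against 12.1% and 10.1% of the 26031 genes tested, with a median of -0.06 over the members. Of the 5, ZNF284, ZNF614 and ZNF528 lost the call without S2-020 replicate 2 (ZNF614 also without any 1 of 3 other libraries) and ZNF229 without S2-020 replicate 1, and ZNF222 kept it whichever library was left out. The call of ZNF415 was lost when any 1 of 5 libraries was left out, and that of ZNF816 without S2-020 replicate 1.

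**Figure D2:**
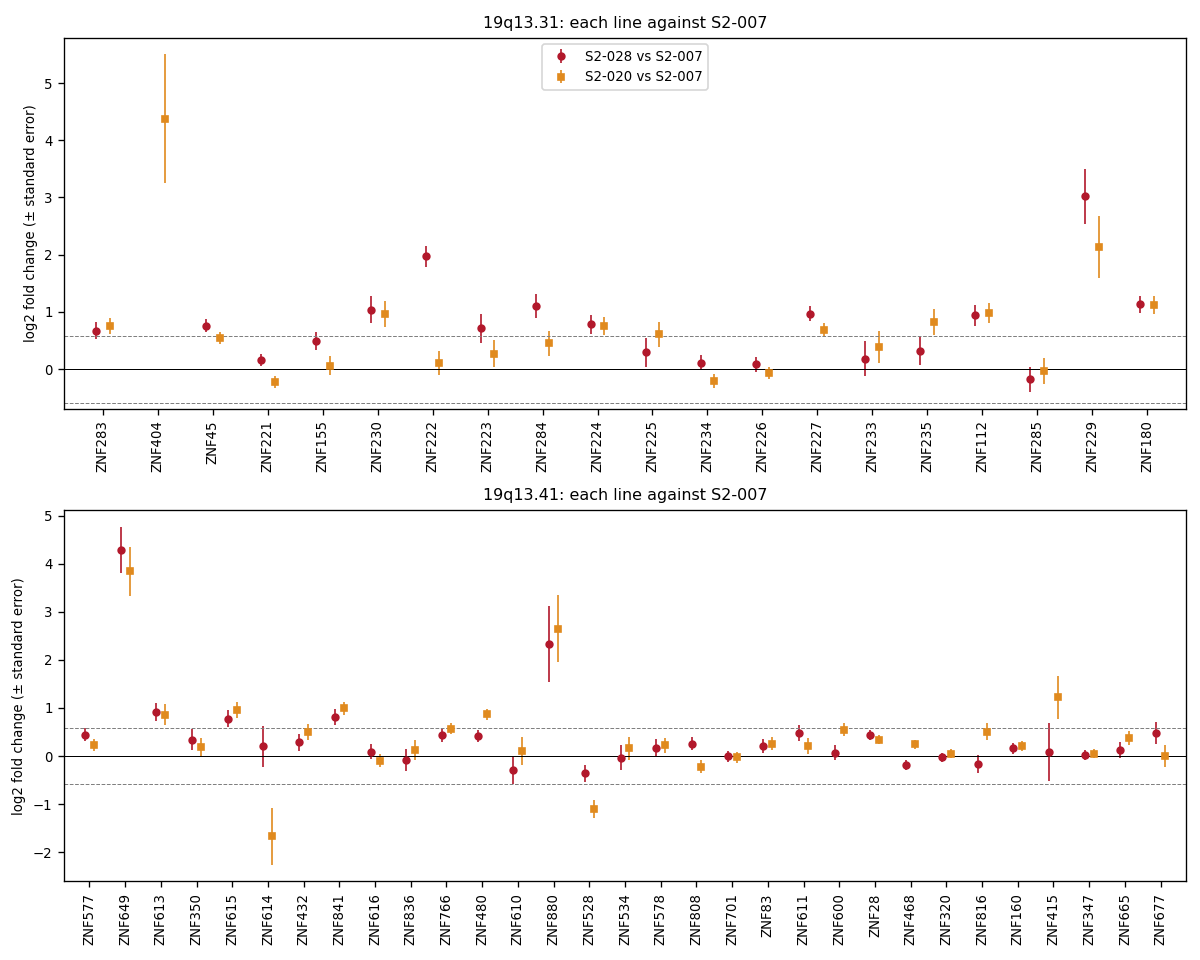
Log2 fold change of each gene in S2-028 (circles) and in S2-020 (squares) against S2-007, with its standard error, in chromosomal order, and dashed lines at 1.5-fold in both directions. Most values in 19q13.31 are above 0, with ZNF229 and ZNF222 the highest in S2-028, while in 19q13.41 ZNF649 is the highest, at 4.28 and 3.84, and most values past the upper line sit at its left, with ZNF415 (1.22 in S2-020) an exception near the right end. ZNF404 has no value for S2-028.

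Of the members of 19q13.31 that reached 1 CPM in a line, ZNF229 differed most. It was at 0.0534, 0.564 and 0.136 CPM in the S2-007 libraries, at 0.807, 1.17 and 1.42 CPM in S2-020, and at 1.98, 2.22 and 1.92 CPM in S2-028. The lines did not overlap, and one S2-007 library was several times above the other two. The log2 fold change against S2-007 was 3.02 (SE 0.486) in S2-028 and 2.13 (SE 0.544) in S2-020, and without S2-007 replicate 2 it was 4.42 and 3.55. ZNF222 was high in S2-028 alone, with 9.29, 7.78 and 6.75 CPM there, 2.31, 1.72 and 2.05 CPM in S2-007 and 2.10, 2.07 and 2.52 CPM in S2-020. S2-007 and S2-020 overlapped, and the log2 fold change of S2-028 was 1.97 (SE 0.181) against S2-007 and 1.83 (SE 0.170) against S2-020.

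ZNF284, next but one to ZNF222 on the same strand, was at 2.47, 1.68 and 1.72 CPM in S2-007, at 2.76, 2.55 and 2.93 CPM in S2-020, and at 4.32, 4.27 and 4.00 CPM in S2-028. The 3 lines were separated in this order, with a log2 fold change of 1.10 (SE 0.206) in S2-028 and 0.45 (SE 0.213) in S2-020. ZNF223, which lies between them, was at 2.14, 1.80 and 1.28 CPM in S2-007 and at 2.71, 2.05 and 3.79 CPM in S2-028. Those libraries overlapped, and its call (0.71, SE 0.260) was lost when any 1 of 4 libraries was left out.

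The counts of these genes carry an uncertainty of assignment. Same-strand exons of other annotated genes cover 44.0% of the exon bases of ZNF284, 45.7% for ZNF223 and 17.2% for ZNF222. Among these genes is ENSG00000267022, a GENCODE gene that reads through the region. In words of 31 bases matched on either strand, ZNF284 shared 48.9% of its exon sequence with other genes, ZNF155 46.2%, ZNF223 45.3% and ZNF224 44.4%. For each of them most of this lay in 1 other gene at the same place. ENSG00000267022 held 43.6% of the words of ZNF284 and 44.6% of those of ZNF223. ZNF230-DT held 39.6% of those of ZNF155, and ZNF225-AS1 held 41.7% of those of ZNF224. Over the 51 genes the median was 11.3% (1.4% to 48.9%), and 11 genes shared over 25%. How such reads were counted is not given in the sources used here.

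Other members of 19q13.31 were higher in both lines than in S2-007 by about the same amount. ZNF180, the last gene of the cluster, was at 3.42, 4.47 and 4.89 CPM in S2-007, at 8.57, 8.86 and 11.0 CPM in S2-020, and at 10.3, 8.85 and 8.67 CPM in S2-028. Neither line overlapped S2-007, and the log2 fold changes were 1.12 (SE 0.150) in S2-020 and 1.13 (SE 0.154) in S2-028. ZNF180 shared only 1.6% of its sequence words with other genes.

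ZNF112 was at 2.67, 2.12 and 2.12 CPM in S2-007, at 4.63, 4.81 and 4.52 CPM in S2-020 and at 4.24, 4.59 and 4.43 CPM in S2-028. ZNF230 was lower throughout, at 1.03, 1.16 and 1.25 CPM in S2-007, at 2.14, 2.60 and 2.15 CPM in S2-020 and at 2.35, 2.25 and 2.46 CPM in S2-028. Both genes were separated from S2-007 in both lines, and neither was separated between S2-020 and S2-028. The log2 fold changes of ZNF112 were 0.98 (SE 0.176) in S2-020 and 0.94 (SE 0.188) in S2-028, and those of ZNF230 were 0.97 (SE 0.226) and 1.04 (SE 0.237).

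Of the other members of this cluster, ZNF227 was at 0.68 and 0.97 (S2-020 and S2-028, log2 fold change against S2-007), ZNF283 at 0.75 and 0.67, and ZNF224 at 0.75 and 0.78, all called in both comparisons. The call of ZNF283 in S2-028 was lost without S2-007 replicate 3 (0.57). ZNF224 codes for a repressor first described on the aldolase A promoter. Of its exon bases, 42.4% lie opposite exons of genes on the other strand, among them the antisense gene ZNF225-AS1. ZNF235 (0.82) and ZNF225 (0.61) were called in S2-020, where the call of ZNF225 was lost without any 1 of 4 libraries. For ZNF404 the summed counts gave a ratio of 24.6 between S2-020 and S2-007 (95% exact interval 6.46 to 209, for counting error only). Between S2-028 and S2-007 it was 8.37 (1.92 to 75.9). That second ratio rests on S2-028 replicate 1, with 10 of 14 counts, since replicates 2 and 3 had 2 counts each, under the floor.

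The 2 most abundant members of 19q13.31 were ZNF45 and ZNF226. ZNF45 was at 10.3, 8.44 and 9.74 CPM in S2-007, at 14.2, 14.9 and 13.6 CPM in S2-020 and at 15.5, 17.8 and 14.8 CPM in S2-028. It was separated from S2-007 in both lines, with log2 fold changes of 0.55 (SE 0.106) in S2-020, under the fold threshold, and 0.76 (SE 0.116) in S2-028. ZNF226 was at 13.4, 11.0 and 12.8 CPM in S2-007, at 11.5, 11.5 and 13.2 CPM in S2-020 and at 14.8, 10.4 and 14.0 CPM in S2-028, so the lines overlapped.

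The smallest differences in 19q13.31 were those of ZNF226, with log2 fold changes of 0.08 (SE 0.132) in S2-028 and -0.07 (SE 0.107) in S2-020, and of ZNF285. ZNF285 was at 2.43, 2.38 and 2.08 CPM in S2-007, at 2.78, 2.55 and 1.58 CPM in S2-020 and at 2.00, 2.21 and 1.89 CPM in S2-028. These overlapped too. ZNF285 lies directly before ZNF229 on the chromosome and ZNF226 directly before ZNF227, so in these places genes with small and large differences were neighbours. Elsewhere they stood in runs, such as the 6 genes from ZNF230 to ZNF225, each called higher than S2-007 in at least 1 line.

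In 19q13.41, ZNF649 had the largest difference of all members that reached 1 CPM in a line. It codes for a repressor reported to lower transcription through the serum response element and AP-1. It was at 0.0267, 0.175 and 0.0543 CPM in the S2-007 libraries (2, 13 and 4 counts), at 1.53, 1.13 and 1.16 CPM in S2-020 and at 1.93, 1.60 and 1.52 CPM in S2-028. Every library of both other lines lay far above the highest S2-007 library. The log2 fold change was 4.28 (SE 0.480) in S2-028 and 3.84 (SE 0.502) in S2-020, and without S2-007 replicate 2 it was 5.33 and 4.90. ZNF649-AS1, its antisense neighbour, had counts of 0, 0 and 0 in S2-007, 20, 7 and 3 in S2-020, and 6, 26 and 0 in S2-028.

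ZNF841 and ZNF615 were also higher in both lines. ZNF841 was at 3.85, 4.27 and 5.02 CPM in S2-007, at 9.98, 8.25 and 8.38 CPM in S2-020 and at 9.04, 6.26 and 7.67 CPM in S2-028. ZNF615 was at 2.63, 2.42 and 2.55 CPM in S2-007, at 5.18, 4.36 and 5.56 CPM in S2-020 and at 4.35, 4.45 and 4.21 CPM in S2-028. Neither overlapped S2-007 in either line, while S2-020 and S2-028 overlapped. The log2 fold changes were 0.99 (SE 0.141) and 0.81 (SE 0.165) for ZNF841 and 0.96 (SE 0.169) and 0.78 (SE 0.179) for ZNF615, in S2-020 and S2-028.

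ZNF613 was at 2.44, 2.00 and 2.43 CPM in S2-007, at 4.48, 5.50 and 2.77 CPM in S2-020 and at 4.64, 4.12 and 4.10 CPM in S2-028. The third S2-020 library came close to S2-007, and the log2 fold changes were 0.86 (SE 0.221) in S2-020 and 0.91 (SE 0.188) in S2-028. ZNF480, the most abundant member of either cluster, was at 11.6, 17.9 and 15.6 CPM in S2-007, at 28.1, 28.6 and 27.3 CPM in S2-020 and at 20.4, 19.6 and 19.6 CPM in S2-028. The lines were separated, with S2-007 lowest, S2-028 between and S2-020 highest, and the log2 fold changes were 0.87 (SE 0.112) for S2-020 and 0.41 (SE 0.121) for S2-028, the latter under the fold threshold.

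ZNF528 went the other way. It was at 4.85, 6.02 and 4.59 CPM in S2-007, at 2.99, 1.98 and 2.34 CPM in S2-020 and at 4.04, 3.63 and 4.34 CPM in S2-028. S2-007 was above both other lines with no overlap, and the log2 fold change was -1.11 (SE 0.190) in S2-020 and -0.36 (SE 0.171) in S2-028. ZNF614 was also lower in S2-020, where its counts were 24, 11 and 4 against 35, 42 and 44 in S2-007, and not in S2-028 (38, 24 and 54).

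ZNF880, which stands next to ZNF528, was called higher in both lines on few counts, with 7, 0 and 16 in S2-007, 56, 57 and 39 in S2-020 and 25, 39 and 34 in S2-028. Its call in S2-028 was lost without any 1 of 4 libraries. ZNF415, reported to lower p53- and AP-1-dependent transcription, was higher in S2-020 only (0.71, 0.829 and 0.669 CPM against 0.147, 0.47 and 0.312 CPM in S2-007), and this call was lost without any 1 of 5 libraries.

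Among the more abundant genes of the second cluster, ZNF320, ZNF347 and ZNF701 had overlapping libraries in all lines, while ZNF468 and ZNF28 differed by under 1.5-fold. For ZNF468 the lines were separated, with S2-020 highest and S2-028 lowest, and the log2 fold changes against S2-007 were 0.24 (SE 0.0884) in S2-020 and -0.18 (SE 0.105) in S2-028. ZNF28 was at 11.6 ± 0.734 CPM in S2-007, 15.0 ± 1.05 in S2-020 and 15.6 ± 1.04 in S2-028 (SD, n = 3), and S2-007 lay under both other lines with no overlap. ZNF320 was at 20.9, 17.9 and 18.2 CPM in S2-007, at 22.4, 19.8 and 18.3 CPM in S2-020 and at 18.1, 19.9 and 17.9 CPM in S2-028. ZNF347 was at 12.8, 13.0 and 13.4 CPM in S2-007, at 12.6, 13.7 and 15.0 CPM in S2-020 and at 12.4, 13.8 and 13.4 CPM in S2-028. ZNF701, whose promoter is printed above, was at 11.7, 11.5 and 10.9 CPM in S2-007, at 13.5, 10.0 and 10.7 CPM in S2-020 and at 9.34, 12.7 and 11.9 CPM in S2-028.

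For ZNF320, ZNF347 and ZNF701 the log2 fold changes against S2-007 lay between -0.03 and 0.05, with standard errors of 0.0958 to 0.123. ZNF808, whose loss is known to impair the development of the human pancreas, was at 5.95 ± 0.571 CPM (SD, n = 3) in S2-007, 5.22 ± 0.312 in S2-020 and 7.11 ± 0.213 in S2-028, and was called in no comparison. ZNF350, also known as ZBRK1, a partner of BRCA1, was at 2.72 ± 0.337, 3.16 ± 0.197 and 3.43 ± 1.01 CPM in the same order, and was not called either. ZNF160, reported as a repressor of TLR4, was at 11.9 ± 1.10, 14.1 ± 0.532 and 13.3 ± 0.563 CPM.

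Within 19q13.41 most of the calls lay on the centromere side. This division was made after the values were seen and was not tested. Of the 15 members up to ZNF528, 5 were called higher than S2-007 in S2-028 and 6 in S2-020. Over all genes tested the shares called higher were 10.2% and 9.57%. Both members called lower in S2-020, ZNF614 and ZNF528, lie in this section as well. Its median log2 fold change was 0.41 in S2-028 and 0.50 in S2-020. Of the 16 from ZNF534 on, ZNF415 alone was called higher, in S2-020, and the medians were 0.11 and 0.22. The same sections differed in sequence sharing: the median share of words found in other genes was 6.3% up to ZNF528 with 0 genes over 25%, and 21.2% from ZNF534 on with 6 genes over 25%. Whether shared reads played a part in the smaller differences was not tested.

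The genes that lie between the members, 6 in 19q13.31 and 28 in 19q13.41, did not share the members' shift. They are mostly long noncoding RNAs and pseudogenes. Of the 23 tested in S2-028 against S2-007, 0 were called higher and 1 lower (edgeR, 1 higher at an unadjusted p under 0.05, 0 higher by DESeq2), with a median log2 fold change of -0.15. In S2-020, 1 of 23 was called higher and 2 lower, with a median of -0.23. The antisense and divergent transcripts at ZNF45, ZNF230, ZNF222 and ZNF225 lay between -0.50 and 0.67, with adjusted p of 0.123 to 0.876 (edgeR) in both comparisons. These genes are fewer and less abundant than the members, and the difference between the lists was not tested.

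The pseudogene ZNF702P (chr19:52968251-52993531), between ZNF816 and ZNF160, was the neighbour with the largest change. It was at 7.69, 7.50 and 7.67 CPM in S2-007, at 3.15, 3.25 and 2.12 CPM in S2-020 and at 1.39, 0.658 and 0.869 CPM in S2-028. The lines were separated, with S2-007 highest, whereas S2-007 had the lowest mean for 36 of the 51 members. In edgeR's quasi-likelihood test the log2 fold change against S2-007 was -2.97 (SE 0.225, adjusted p = 7.15e-10) in S2-028 and -1.45 (SE 0.166, adjusted p = 4.39e-07) in S2-020, and -1.55 (SE 0.281, adjusted p = 0.000148) between S2-028 and S2-020. PPP2R1A, which codes for the scaffold subunit of protein phosphatase 2A and lies between ZNF836 and ZNF766, was higher in S2-020 (0.64, SE 0.0534, adjusted p = 5.77e-09), and its 0.19 in S2-028 was under the fold threshold. ZNF816-ZNF321P, a readthrough that overlaps ZNF816, was lower in S2-020 (-0.87, SE 0.294, adjusted p = 0.0228).

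Genes outside the clusters were also shifted upward in this region of the chromosome. For the 50 nearest tested genes on either side of 19q13.31, a window set after the members' values were seen, the median log2 fold change was 0.58 in S2-028, with 19 called higher and 1 lower, and 0.28 in S2-020, with 10 higher and 7 lower. For those around 19q13.41 it was 0.38 (13 higher, 2 lower) and 0.28 (10 higher, 4 lower). Over all tested genes of chromosome 19 outside the clusters, without zinc-finger genes but with these nearest genes included, the medians were 0.12 and 0.11. The shift of the members was thus accompanied by a raised median of the genes around the clusters, highest around 19q13.31 in S2-028. The part of gene copy number in this shift was not tested, since no copy number was available.

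Zinc-finger genes elsewhere, taken by a symbol of ZNF and a number, gave a further reference. Not all of these code for KRAB repressors. Of the other zinc-finger genes of chromosome 19, 47 of 182 tested (25.8%) were called higher and 10 lower (5.49%) in S2-028 against S2-007, and 46 of 180 higher (25.6%) and 5 lower (2.78%) in S2-020. Of those on other chromosomes it was 17 of 230 higher (7.39%) and 9 lower (3.91%) in S2-028, and 29 of 232 higher (12.5%) and 16 lower (6.90%) in S2-020. The share called higher among the members, 32.0% and 33.3%, was thus closer to that of the other zinc-finger genes of chromosome 19. The clusters differed in this. In 19q13.31 the share was above that of those genes, with 11 of 19 (57.9%) in S2-028 and 10 of 20 in S2-020. In 19q13.41 it was under theirs, at 16.1% in S2-028 and 22.6% in S2-020. The medians of 19q13.41 (0.20 and 0.22) were close to those of the other zinc-finger genes of chromosome 19 (0.16 and 0.21). No test between the lists was made. Low levels in S2-007 alone, like that of ZNF649, were seen for ZNF71 (0.135 ± 0.0278 CPM in S2-007, 2.47 ± 0.448 in S2-020 and 2.43 ± 0.231 in S2-028, SD, n = 3) and ZNF569 (0.188 ± 0.0281, 2.18 ± 0.547 and 1.44 ± 0.440 CPM), which lie outside both clusters.

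**Figure D3:**
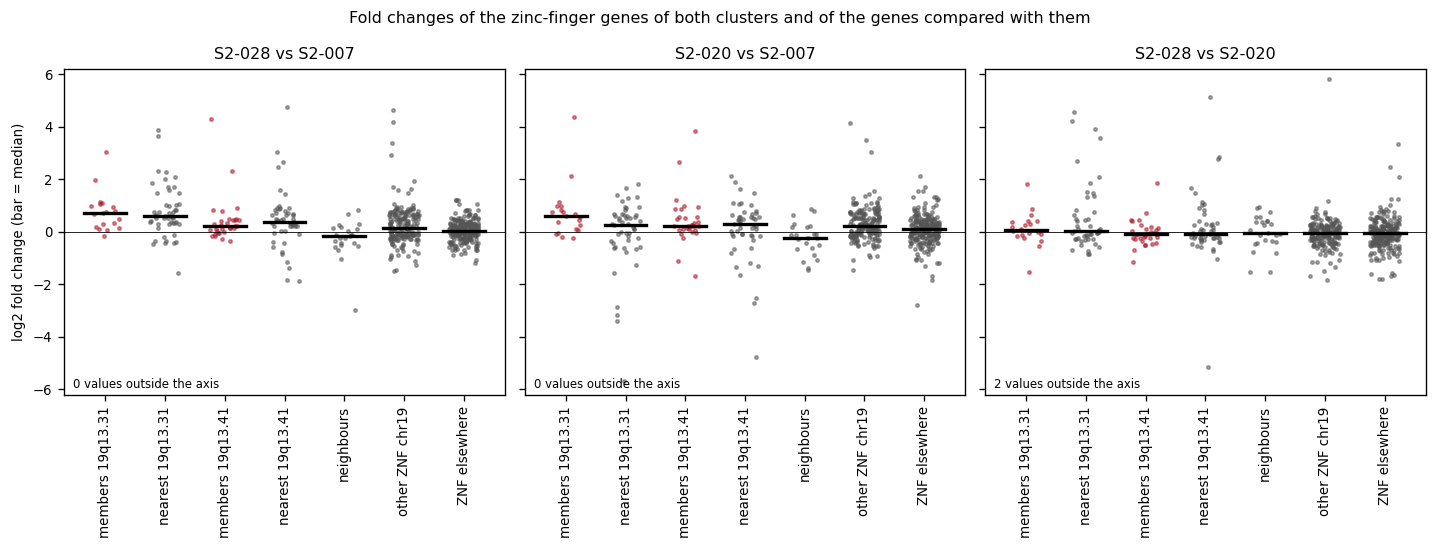
Log2 fold change of every tested gene of each list (points) with the list's median (bar), for the 3 comparisons: the members and the 50 nearest other genes of each cluster, the neighbours between the members, and the zinc-finger genes on the rest of chromosome 19 and elsewhere. The bars of 19q13.31 (0.71 and 0.58) and of the genes around it (0.58 and 0.28) stand above 0 in both comparisons with S2-007, those of the neighbours stand under 0, and all bars are near 0 for S2-028 against S2-020. In the third panel 2 values lie outside the axis.

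The machinery through which KRAB zinc-finger proteins act was examined with a list of 30 genes for corepressors, heterochromatin proteins and DNA methylation enzymes, of which 29 were tested. In S2-028 against S2-007, 6 were called higher and 1 lower (20.7% and 3.45%), against 10.2% and 8.19% of all genes tested. In S2-020 against S2-007 it was 5 higher and 1 lower (17.2% and 3.45%), against 9.57% and 12.1%. In S2-028 against S2-020 it was 3 higher and 2 lower (10.3% and 6.9%), against 12.1% and 10.1%. No test of the list was made. TRIM28, the common corepressor, was at 256, 259 and 287 CPM in S2-007, at 524, 518 and 504 CPM in S2-020 and at 558, 511 and 552 CPM in S2-028. Both lines lay above S2-007 with no overlap, by 0.92 (SE 0.0504, adjusted p = 9.19e-12) and 1.02 (SE 0.0604, adjusted p = 1.38e-11) on the log2 scale, while S2-028 and S2-020 overlapped (0.07, adjusted p = 0.279, edgeR). TRIM28 itself lies near the end of chromosome 19 (chr19:58544064-58550715), outside both clusters.

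SETDB1, the methyltransferase that TRIM28 recruits, was at 32.3 ± 1.29 CPM in S2-007, 40.0 ± 1.85 in S2-020 and 32.6 ± 1.01 in S2-028 (SD, n = 3). Its log2 fold change was 0.02 (SE 0.0745, adjusted p = 0.904) in S2-028 and 0.28 (SE 0.0668, adjusted p = 0.00187) in S2-020, under the fold threshold in both. Some genes of DNA methylation were higher in both lines than in S2-007. UHRF1, which guides the maintenance of methylation, was at 130.0 ± 9.87 CPM in S2-007, 243 ± 8.63 CPM in S2-020 and 226 ± 18.5 CPM in S2-028, with log2 fold changes of 0.87 (adjusted p = 1.01e-10) and 0.81 (adjusted p = 4.12e-09). The de novo methyltransferase gene DNMT3B rose by 0.74 (adjusted p = 3.08e-05) and 0.97 (adjusted p = 3.80e-06). TET1, a gene of demethylation, was at 0.592 ± 0.0843, 1.07 ± 0.176 and 1.21 ± 0.250 CPM, and was called higher in both (adjusted p = 0.0449 in S2-020 and 0.0175 in S2-028).

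ATRX, a chromatin remodeller found at KRAB zinc-finger target sites, was high in S2-028 alone, at 222, 212 and 224 CPM against 106, 108 and 108 CPM in S2-007 and 112, 109 and 110.0 CPM in S2-020. The log2 fold change was 1.03 (SE 0.0581, adjusted p = 5.78e-12) against S2-007 and 1.00 (SE 0.0509, adjusted p = 4.69e-12) against S2-020. CBX1, which codes for a heterochromatin protein, was called higher in S2-028 as well (0.65, adjusted p = 8.57e-09, and 0.61, adjusted p = 1.27e-08). The remodeller gene SMARCAD1 was lower in S2-028 than in S2-007 (-0.71, adjusted p = 3.55e-08), and HDAC1 was lower in S2-020 than in S2-007 (-0.65, adjusted p = 1.93e-09).

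**Figure D4:**
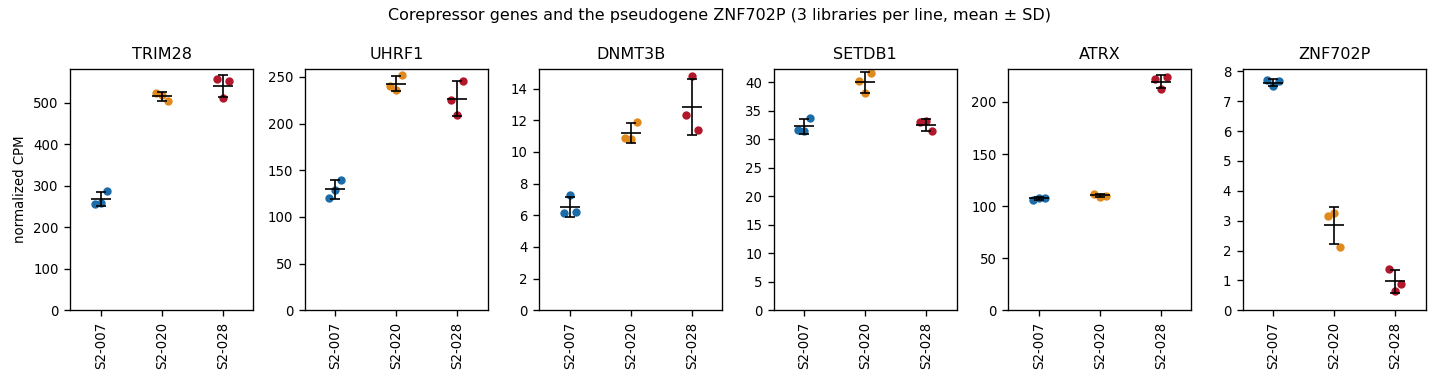
Normalized CPM of 5 genes from the list of corepressors, heterochromatin proteins and DNA methylation enzymes, and of the pseudogene ZNF702P, in each library. Points are libraries (3 per line), with mean and SD, and each panel has its own linear axis from 0. TRIM28, UHRF1 and DNMT3B are lowest in S2-007, SETDB1 is highest in S2-020, ATRX is high in S2-028 alone, and ZNF702P falls from S2-007 to S2-020 to S2-028.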

How the data were processed

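RNA of 3 cell lines was measured in 9 libraries, 3 per line, each assigned by its own label. The authors deposited whole-number read counts per gene, without normalization. The submitters' processing notes name Trimmomatic 0.39, BWA 0.7.17, SAMtools 1.12, edgeR 3.16.5 and GRCh38.p14. The counting tool and its treatment of strand and shared reads are not given in the sources used here, and BWA does not splice reads across introns. A further 18 columns, in which the authors had scaled these counts to a normalized signal, were not used, and 2 lines that name no gene, a sum and a ratio per library, stayed out.

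The members and all lists were chosen with earlier results of these data known. In R 4.3.3, edgeR 4.0.16 (filterByExpr with a minimum count of 10 and total of 15, TMM, quasi-likelihood test, Benjamini-Hochberg) was fitted over all genes for the 6 libraries of each pair. Its p-values set the difference between 2 lines against the spread between these libraries. The alternatives were DESeq2 1.42.0, the likelihood ratio test, RLE normalization, no filter, 1 fit of all 9 libraries, no fold threshold, a replicate block, each library left out, and, added after the data were seen, the members with over 25% shared words left out. Every library's value is given for the 6 members per cluster with the largest difference between line means among those reaching 1 CPM, the 2 most abundant and the 2 with the smallest difference, and at most 4 called genes per comparison of each other list; further members and neighbours were named after their values were seen. Positions and promoters came from RefSeq, exon lengths and shared words from GENCODE 44. Libraries of a line differed by a chi-square of 8.41 to 23.7 per gene, those of different lines by 231 to 351, so none was deposited under 2 labels. The procedure was tested on simulated data.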

Additional observations from a re-analysis of the deposited data

How the results depend on the processing

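Of 648 recomputed log2 fold changes of the 18 members given in full, 643 moved by less than 1 SD between libraries and no called value changed sign. The 5 others were those of ZNF229 and ZNF649 against S2-007 without its replicate 2, given with these genes, and that of ZNF112 in S2-020 (1.12 without S2-007 replicate 1). Members called lower in S2-028 against S2-020 were 1 by DESeq2, 1 with all 9 libraries in one fit, 1 without members sharing over 25% of their words and 5 with no fold threshold, which raised those called higher to 8. With no fold threshold, neighbours called were 2 in S2-028 against S2-007 and 2 against S2-020. Corepressors stand here for the whole list of corepressors, heterochromatin proteins and DNA methylation enzymes. With no fold threshold, those called were 18 (S2-028 against S2-007), 26 (S2-020 against S2-007) and 22 (S2-028 against S2-020). Without the filter, 2 neighbours were called in S2-028 against S2-007, and by the likelihood ratio test 5 in S2-020. The cause was not tested.

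With each library left out, in the order S2-028 against S2-007, S2-020 against S2-007 and S2-028 against S2-020, members called higher were 14 to 15, 17 to 19 and 2 to 6, members called lower 0 to 0, 1 to 2 and 1 to 2, neighbours 1 to 1, 2 to 3 and 1 to 2, and corepressors 6 to 8, 5 to 8 and 4 to 5. Replicate numbers did not pair the libraries (same-number correlations of -0.022 to 0.014). With the replicate block, members called higher were 16, 17 and 5 and called lower 0, 2 and 2, neighbours 1, 3 and 1, and corepressors 7, 5 and 5, with no other call rule changed.

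At these depths, ratios of the rarest members (ZNF404, ZNF649, ZNF880) rest on at most 16 counts per S2-007 library. Library order, culture and RNA quality are not given in the sources used here, and each line is 1 population of cells.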

Other observations

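ZNF606 (chr19:57977053-58003346), a zinc-finger gene of chromosome 19 outside both clusters, was near the floor in S2-007 (0.0534, 0 and 0.136 CPM) and in S2-020 (0, 0.0721 and 0 CPM) and at 1.32, 1.47 and 1.97 CPM in S2-028. ZNF607 (chr19:37696363-37719761) was at 0.347, 0.0806 and 0.0272 CPM in S2-007 and above 1 CPM in every library of S2-020 (1.07, 1.67 and 1.17) and S2-028 (1.77, 1.41 and 1.59). ZNF185 on chromosome X, which despite its symbol codes for a LIM-domain protein of the actin cytoskeleton and not for a KRAB repressor, showed another order, with 16.8, 16.3 and 18.0 CPM in S2-007, 1.88, 3.26 and 2.37 CPM in S2-020, and 24.2, 23.4 and 29.1 CPM in S2-028.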
